A study of Homo sapiens with 12 samples.

Results

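The genes described here are 52 genes that copy chromosomal DNA and supply its nucleotides, listed by name and covering replication origins, the replication fork and nucleotide synthesis. They were chosen by name, with earlier results of these data known, and all 52 were found among the 57820 gene identifiers of the count tables and passed the filter on low counts. The RNA came from 2 established human lines, TE10 and Kyse410, both from squamous carcinomas of the esophagus, and its polyadenylated part was sequenced. Cells were stably infected to express an shRNA against UHRF1 (shUHRF1) or a scramble control, which gave 4 groups of 3 libraries: Kyse410 shUHRF1, Kyse410 scramble, TE10 shUHRF1 and TE10 scramble. The labels give neither the number of hairpins or clones nor the time since infection, and they name no separate cultures behind the replicates. The p-values therefore rest on library-to-library spread, which may be technical. The UHRF1 protein, a ubiquitin ligase, reads hemimethylated DNA behind the fork and brings the methyltransferase DNMT1 there. The questions asked of the replication genes were how they differed between shUHRF1 and scramble in each line, whether that response differed between the lines, and how the scramble controls of both lines compared.

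As background, replication starts where the origin recognition complex (ORC) sits on DNA and, with CDC6 and CDT1, loads the ring-shaped MCM helicase in the G1 phase. In S phase the kinase CDC7 with DBF4, together with cyclin-dependent kinase, turns the loaded ring into the active helicase by adding CDC45 and the GINS complex. DNA polymerase alpha with primase then lays the primers, PCNA is loaded as a sliding clamp by the RFC complex, and polymerases delta and epsilon copy the strands. Many of these genes are transcribed at the passage from G1 to S through E2F transcription factors. These factors bind sites near the start of the gene. The RNA of such genes can vary with the share of dividing cells.

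Promoter sequence is a property of these genes that their choice did not use. RefSeq windows of 300 bases, from 250 before to 50 after each annotated start in GRCh38.p14, were found for 46 of the 52 genes, and none for MCM4, MCM5, GINS4, POLD3, RPA2 and RPA3. The windows were searched on both strands for 3 E2F-type heptamers. These were TTGGCGC, the form TTCCCGC, and lastly TTCGCGC, and the first and the last can overlap on opposite strands. The search was repeated for the CCAAT box, which can overlap a heptamer. At least 1 heptamer stood in a window of 35 of the 46 genes, or 76.1%, against 21% of the 10863 tested genes with a window and 13.1% of all 27305 genes in the table. The CCAAT box stood in 27 of the 46, or 58.7%, against 42.5% of tested genes and 39.7% of all genes. By role, heptamers were found for 4 of 4 MCM helicase genes, 6 of 6 clamp and clamp loader genes and 5 of 5 nucleotide supply genes, but for 2 of 6 ORC genes, which were ORC1 and ORC3. The windows printed here were picked for what the genes did: LIG1, CDT1 and CLSPN are among the largest rises in Kyse410, GINS1 was called in opposite directions in the 2 lines, and ORC5 was called in neither. They lie at chr19:48170295-48170594, minus strand, chr16:88803539-88803838, plus strand, chr1:35769929-35770228, minus strand, chr20:25407423-25407722, plus strand, and chr7:104207964-104208263, minus strand, and are written 5′ to 3′ on the gene's strand with the motifs of either strand in capitals.
LIG1: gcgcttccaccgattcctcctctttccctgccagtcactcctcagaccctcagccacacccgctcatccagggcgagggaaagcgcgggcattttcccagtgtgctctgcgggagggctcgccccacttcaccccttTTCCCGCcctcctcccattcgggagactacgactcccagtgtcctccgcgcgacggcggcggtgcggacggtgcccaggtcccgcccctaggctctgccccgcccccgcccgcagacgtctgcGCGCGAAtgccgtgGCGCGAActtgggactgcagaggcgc
CDT1: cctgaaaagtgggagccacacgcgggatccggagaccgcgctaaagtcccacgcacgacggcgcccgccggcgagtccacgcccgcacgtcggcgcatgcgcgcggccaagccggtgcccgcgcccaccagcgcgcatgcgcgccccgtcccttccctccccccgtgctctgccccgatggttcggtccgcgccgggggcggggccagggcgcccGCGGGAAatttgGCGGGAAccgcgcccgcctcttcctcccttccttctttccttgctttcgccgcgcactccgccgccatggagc
CLSPN: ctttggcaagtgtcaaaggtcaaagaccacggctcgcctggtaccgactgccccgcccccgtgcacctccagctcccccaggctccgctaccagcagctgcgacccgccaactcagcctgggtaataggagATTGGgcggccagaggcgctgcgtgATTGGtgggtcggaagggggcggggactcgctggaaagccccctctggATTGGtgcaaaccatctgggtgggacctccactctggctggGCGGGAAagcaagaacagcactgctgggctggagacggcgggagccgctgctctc
GINS1: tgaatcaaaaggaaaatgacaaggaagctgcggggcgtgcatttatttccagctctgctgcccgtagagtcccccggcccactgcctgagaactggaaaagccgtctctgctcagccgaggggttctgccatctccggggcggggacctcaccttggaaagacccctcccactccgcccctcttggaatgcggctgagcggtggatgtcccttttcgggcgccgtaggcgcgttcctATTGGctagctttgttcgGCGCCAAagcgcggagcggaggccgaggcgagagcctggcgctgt
ORC5: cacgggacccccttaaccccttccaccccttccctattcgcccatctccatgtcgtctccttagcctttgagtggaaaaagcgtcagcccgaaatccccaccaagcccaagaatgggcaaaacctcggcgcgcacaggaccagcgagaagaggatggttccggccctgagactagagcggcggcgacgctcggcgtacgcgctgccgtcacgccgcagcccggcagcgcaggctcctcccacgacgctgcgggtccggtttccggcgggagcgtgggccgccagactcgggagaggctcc
The LIG1 window holds 3 heptamers, that of CDT1 2, and those of CLSPN and GINS1 1 each, with 3 CCAAT boxes for CLSPN and 1 for GINS1. None of the motifs is spelled in the ORC5 window. The printed examples do not stand for all genes. Of the other genes called in neither line, RFC3 and RFC5 have 1 heptamer each and ORC4 has none. CDC45, FEN1 and POLD1, called higher in Kyse410, have no heptamer in their windows. Of the genes with a window, heptamers were found for 29 of 35 called higher in Kyse410 shUHRF1 libraries, 6 of 10 not called and 0 of 1 called lower. In TE10 they were found for 10 of 14 called higher, 6 of 6 called lower and 19 of 26 not called. A match describes the letters of the window and is not a measured binding site.

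Each library held 7857662 to 12005229 reads assigned to genes, and levels below are read counts scaled to a common library total (CPM) after TMM scaling, which evens out composition between libraries. The targeted gene followed the labels: UHRF1 had 42.0, 43.4 and 41.8 CPM in the Kyse410 shUHRF1 libraries, against 100.7, 101.2 and 95.0 CPM in the Kyse410 scramble libraries, and 81.9, 86.6 and 88.7 CPM in the TE10 shUHRF1 libraries, against 172.8, 178.3 and 183.5 CPM in the TE10 scramble libraries. The log2 fold change of UHRF1 was -1.22 (SE 0.0573, adjusted p = 1.56e-24) in Kyse410 and -1.06 (SE 0.0526, adjusted p = 3.11e-23) in TE10, and the groups did not overlap in either line. Of 12 squamous epithelial markers, 9 reached 1 CPM in every library of each Kyse410 group and 10 in each TE10 group. SOX2 and PKP1 were at most 1.27 CPM, and KRT5 and KRT14 were at most 5.11 CPM in Kyse410. Of the 10 markers tested, 6 were called higher and 2 lower in Kyse410, with a median log2 fold change of 0.23, and 2 higher and 8 lower in TE10, with a median of -0.72. Of all tested genes 22.6% were called higher and 26.7% lower in Kyse410, with a median of -0.03. In TE10 18.8% and 20.0% of all tested genes were, with a median of 0.00. The summed level of the 12 was 834.6 to 867.6 CPM in Kyse410 shUHRF1 libraries against 698.1 to 715.7 CPM in Kyse410 scramble libraries, and 1145.9 to 1204.8 CPM in TE10 shUHRF1 libraries against 1390.1 to 1418.6 CPM in TE10 scramble libraries. KRT5, a keratin of basal cells, had 7.87, 8.55 and 7.68 CPM in the TE10 shUHRF1 libraries, against 66.4, 67.0 and 68.5 CPM in the TE10 scramble libraries. The share of gene reads on mitochondrially encoded genes was 3.79 to 4.0% in Kyse410 shUHRF1 libraries against 2.3 to 2.43% in Kyse410 scramble libraries, and 4.95 to 5.73% in TE10 shUHRF1 libraries against 5.95 to 6.05% in TE10 scramble libraries. Among 14 matched markers of fibroblasts, endothelium and blood, COL1A1 and CDH5 alone reached 1 CPM in every library, and the others, DCN, LUM, COL3A1, PTPRC, CD3E and KDR among them, were at or near 0. The summed level of these 14 was 239.5 to 264.7 CPM in Kyse410 shUHRF1 libraries against 133.0 to 144.1 CPM in Kyse410 scramble libraries, and 61.4 to 71.2 CPM in TE10 shUHRF1 libraries against 51.1 to 55.1 CPM in TE10 scramble libraries. In Kyse410 CDH5 had 90.5 to 104 CPM in shUHRF1 libraries against 24.5 to 24.9 CPM in scramble libraries. COL1A1 had 146 to 159 CPM against 107 to 118 CPM there. The part of these differences in the replication results was not tested.

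In Kyse410 most replication genes were higher in the shUHRF1 libraries, while in TE10 they moved both ways by smaller amounts. The summed level of the 52 genes was 4644 ± 44 CPM in Kyse410 shUHRF1 libraries and 3728 ± 14 CPM in Kyse410 scramble libraries (SD, n = 3 each). In TE10 it was 6116 ± 87 CPM in shUHRF1 libraries and 5744 ± 10 CPM in scramble libraries. In neither line did the libraries of the 2 groups overlap in this sum. Calls are at an adjusted p under 0.05 in edgeR's quasi-likelihood test with Benjamini-Hochberg adjustment over all 16060 genes tested. In Kyse410, 42 of the 52 genes were called, where 49.3% of all tested genes were. Of these 41 were called higher, where 22.6% of all genes were, and 1 was called lower, where 26.7% were, with a median log2 fold change of 0.35 against -0.03 over all genes. In TE10, 23 were called, where 38.8% of all genes were. Of these 16 were called higher, where 18.8% of all genes were, and 7 lower, where 20.0% were, with a median of 0.04 against 0.00 over all genes. The libraries of the 2 groups did not overlap for 40 genes that were higher and 1 that was lower in Kyse410, where 25.6% and 30.0% of all genes did so, and for 18 higher and 10 lower in TE10, where 23.1% and 23.8% did. In RNA from a whole culture, a larger share of cells in S phase and more transcript in each such cell cannot be told apart.

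**Figure D1:**
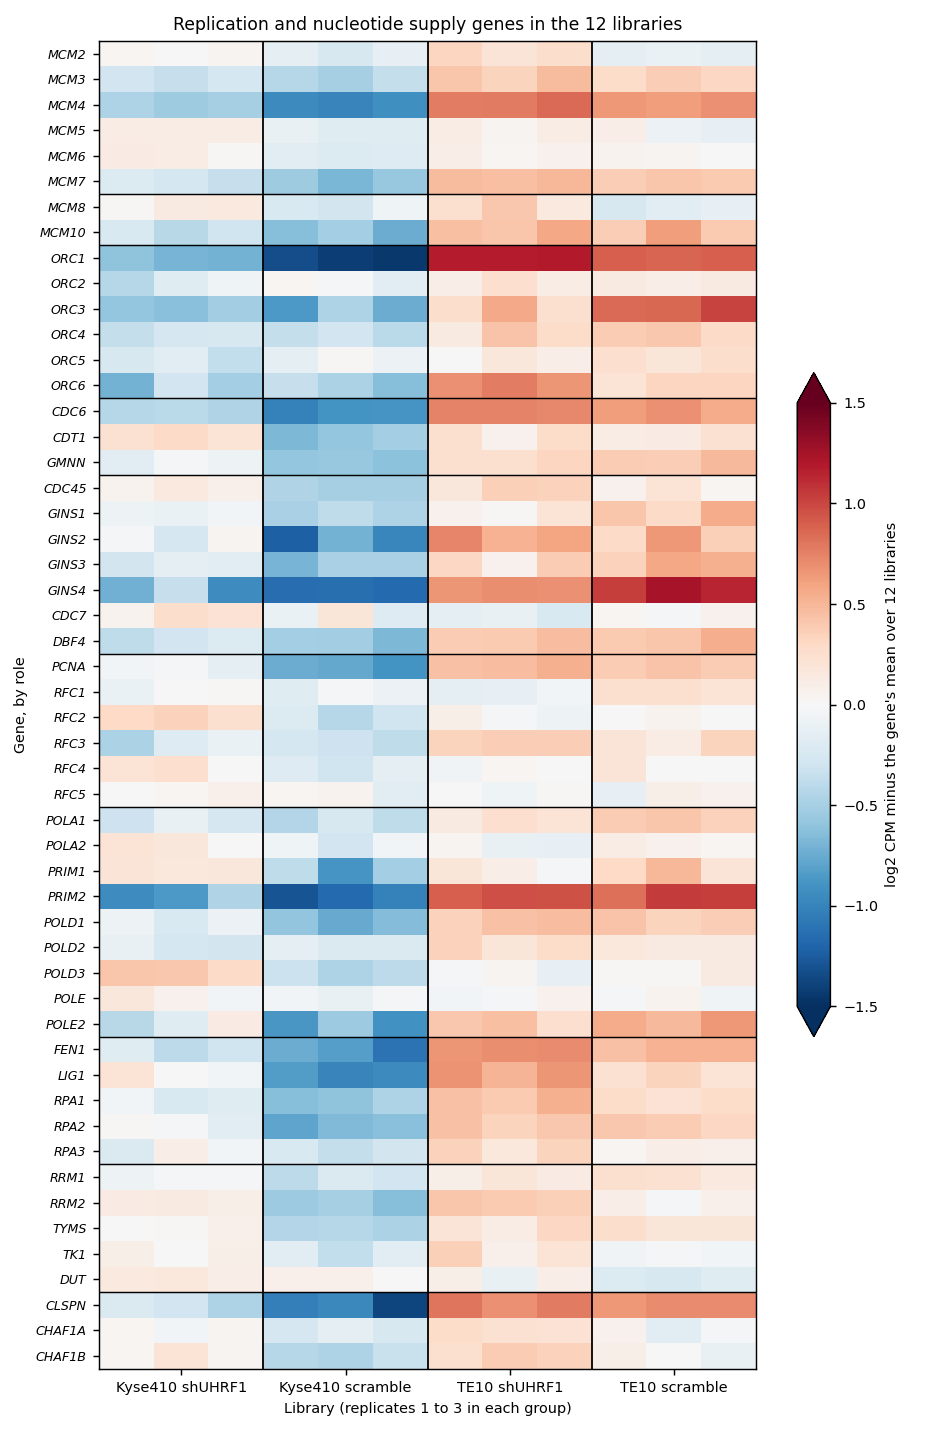
Heat map of the 52 replication genes, in rows by role, across the 12 libraries in columns, with Kyse410 shUHRF1, Kyse410 scramble, TE10 shUHRF1 and TE10 scramble from left to right. Colour shows each gene's log2 CPM relative to its mean over all libraries. Most rows are lowest in the Kyse410 scramble libraries, where the summed level was 3718 to 3743 CPM, and the TE10 libraries are the higher ones.

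Calls in both lines were combined by gene. Called higher in both lines were 13 genes, or 25.0%, where 6.96% of all tested genes were: MCM2, MCM4, MCM5, MCM8, ORC1, CDC45, FEN1, LIG1, RPA1, RRM2, TK1, CHAF1A and CHAF1B. No replication gene was called lower in both lines, where 9.03% of all genes were, or higher in TE10 and lower in Kyse410, where 4.29% were. Called in Kyse410 alone were 25 genes, or 48.1%, against 25.4% of all genes, 24 of them higher and ORC2 lower. Higher in Kyse410 and lower in TE10 were 4 genes, or 7.69%, against 3.63% of all genes, namely GMNN and the GINS subunits GINS1, GINS3 and GINS4. Called in TE10 alone were 6 genes, or 11.5%, against 14.9% of all genes: ORC6, POLD2 and DUT, which were higher, and ORC3, RFC1 and POLA1, which were lower. ORC4, ORC5, RFC3 and RFC5, or 7.69%, were called in neither line, where 35.8% of all genes were.

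The MCM2 to MCM7 proteins form the hexameric helicase that unwinds DNA ahead of the fork. All 6 genes were called higher in Kyse410 shUHRF1 libraries, with log2 fold changes of 0.13 to 0.46, and MCM2, MCM4 and MCM5 were called higher in TE10. Their summed level was 1187.9 ± 18.9 CPM in Kyse410 shUHRF1 libraries and 984.9 ± 34.2 CPM in Kyse410 scramble libraries, and 1783.9 ± 45.8 CPM in TE10 shUHRF1 libraries and 1594.8 ± 5.7 CPM in TE10 scramble libraries (SD, n = 3 each). MCM4 had 216.3, 206.0 and 211.8 CPM in the Kyse410 shUHRF1 libraries, against 153.8, 149.6 and 157.8 CPM in the Kyse410 scramble libraries. In TE10 it had 508.9, 510.9 and 536.9 CPM in the TE10 shUHRF1 libraries, against 470.1, 460.4 and 480.7 CPM in the TE10 scramble libraries. MCM4 libraries did not overlap between the groups in either line, and the step was the larger one in Kyse410. MCM4 gave a log2 fold change of 0.46 (SE 0.0414, adjusted p = 1.05e-13) in Kyse410, and of 0.14 (SE 0.0376, adjusted p = 0.00207) in TE10. MCM2 had 333.9, 326.2 and 335.7 CPM in the Kyse410 shUHRF1 libraries, against 298.3, 277.1 and 300.4 CPM in the Kyse410 scramble libraries. In the other line MCM2 had 408.9, 373.6 and 390.4 CPM in the TE10 shUHRF1 libraries, against 297.6, 305.3 and 295.6 CPM in the TE10 scramble libraries. Both pairs of groups were apart, and here the larger rise was in TE10. On the log2 scale the change of MCM2 was 0.18 (SE 0.0398, adjusted p = 0.000107) in Kyse410, and 0.38 (SE 0.0407, adjusted p = 2.83e-11) in TE10. An antisense gene shares 22.7% of the exon bases of MCM2, and since the strand setting of the counting is not given, reads of such a pair cannot be told apart. MCM5 lost its TE10 call without TE10 shUHRF1 replicate 3, TE10 scramble replicate 2 or TE10 scramble replicate 3 and under no filter, and over all 14 alternatives its log2 value ran from 0.08 to 0.19 and its adjusted p from 0.00378 to 0.299. In Kyse410 the call of MCM3 was lost without Kyse410 shUHRF1 replicate 3, Kyse410 scramble replicate 1 or Kyse410 scramble replicate 2, and over all 14 alternatives its log2 value ran from 0.09 to 0.17 and its adjusted p from 0.00556 to 0.147.

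Outside the hexamer, MCM8, which works with MCM9 in homologous recombination, rose in both lines, and MCM10, which helps to activate the helicase, rose in Kyse410. MCM8 had 45.5, 49.6 and 50.1 CPM in the Kyse410 shUHRF1 libraries, against 38.4, 37.3 and 43.2 CPM in the Kyse410 scramble libraries. In TE10 MCM8 had 53.3, 59.7 and 49.9 CPM in the TE10 shUHRF1 libraries, against 38.3, 40.1 and 41.3 CPM in the TE10 scramble libraries. The shUHRF1 libraries were the higher ones in both lines, with no overlap. This gave MCM8 a log2 fold change of 0.29 (SE 0.0741, adjusted p = 0.000939) in Kyse410, and of 0.44 (SE 0.0787, adjusted p = 7.19e-06) in TE10. MCM10 had 26.6, 23.3 and 25.2 CPM in the Kyse410 shUHRF1 libraries, against 19.9, 21.8 and 18.6 CPM in the Kyse410 scramble libraries. In TE10 MCM10 had 42.3, 41.3 and 46.5 CPM in the TE10 shUHRF1 libraries, against 40.1, 48.1 and 40.8 CPM in the TE10 scramble libraries. In Kyse410 the MCM10 libraries were apart, and in TE10 the scramble libraries covered the whole range of the shUHRF1 ones. As log2 fold changes of MCM10 these were 0.32 (SE 0.0945, adjusted p = 0.00426) in Kyse410, and 0.01 (SE 0.0849, adjusted p = 0.931) in TE10, which was not called.

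The 6 ORC subunits, whose proteins mark origins as a single complex, were called in both directions, as all tested genes were. In Kyse410 16.7% of them were called higher and 16.7% lower, where 22.6% and 26.7% of all genes were. In TE10 33.3% were called higher and 16.7% lower, where 18.8% and 20.0% of all genes were. ORC1 was called higher in both lines, ORC6 higher and ORC3 lower in TE10, and ORC2 lower in Kyse410; ORC4 and ORC5 were not called. The summed ORC level was 161.9 ± 7.17 CPM in Kyse410 shUHRF1 libraries and 158.4 ± 7.68 CPM in Kyse410 scramble libraries, and 310.2 ± 14.7 CPM in TE10 shUHRF1 libraries and 299.7 ± 4.5 CPM in TE10 scramble libraries (SD, n = 3 each), so that the groups overlapped in both lines. ORC1, the subunit whose amount is known to vary over the human cell cycle, had 28.5, 26.6 and 26.5 CPM in the Kyse410 shUHRF1 libraries, against 17.2, 16.3 and 15.9 CPM in the Kyse410 scramble libraries. In TE10 ORC1 had 97.7, 97.5 and 98.7 CPM in the TE10 shUHRF1 libraries, against 80.2, 78.9 and 80.3 CPM in the TE10 scramble libraries. The shUHRF1 libraries of ORC1 lay above the scramble ones in both lines, and all Kyse410 libraries lay below all TE10 libraries. In log2 fold change ORC1 stood at 0.72 (SE 0.0839, adjusted p = 2.36e-10) in Kyse410, and at 0.29 (SE 0.0602, adjusted p = 7.3e-05) in TE10. ORC3 had 18.8, 18.1 and 19.5 CPM in the Kyse410 shUHRF1 libraries, against 15.5, 20.3 and 16.8 CPM in the Kyse410 scramble libraries. In TE10 ORC3 had 33.7, 41.7 and 33.2 CPM in the TE10 shUHRF1 libraries, against 50.6, 50.8 and 56.5 CPM in the TE10 scramble libraries. ORC3 libraries overlapped in Kyse410, while in TE10 each shUHRF1 library was below each scramble library. The log2 fold change of ORC3 was 0.11 (SE 0.106, adjusted p = 0.434) in Kyse410, which was not called, and -0.54 (SE 0.0891, adjusted p = 1.69e-06) in TE10. Its response in Kyse410 exceeded that in TE10 by 0.65 (SE 0.139, adjusted p = 0.000149). ORC6, the smallest and most loosely bound subunit, had a log2 fold change of -0.01 (SE 0.0966, adjusted p = 0.931) in Kyse410, which was not called, and of 0.43 (SE 0.0863, adjusted p = 6.69e-05) in TE10. ORC2 had a log2 fold change of -0.18 (SE 0.0757, adjusted p = 0.0456) in Kyse410. For ORC2 the Kyse410 call was lost without Kyse410 shUHRF1 replicate 1, Kyse410 shUHRF1 replicate 2, Kyse410 scramble replicate 1 or Kyse410 scramble replicate 2 and under RLE scaling, library totals, TMM without mitochondrial genes, DESeq2, no filter, the stricter filter or a fit of only these libraries, and over all 14 alternatives its log2 value ran from -0.25 to -0.08 and its adjusted p from 0.01 to 0.393.

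CDC6 and CDT1 load the helicase onto ORC-bound DNA, and geminin, the product of GMNN, blocks CDT1 once S phase has begun. All 3 genes rose in Kyse410, the 2 loaders and the inhibitor alike, and in TE10 the only call was the lower GMNN. Their summed level was 207.2 ± 6.28 CPM in Kyse410 shUHRF1 libraries and 135.6 ± 3.78 CPM in Kyse410 scramble libraries, and 297.9 ± 6.56 CPM in TE10 shUHRF1 libraries and 296.1 ± 4.1 CPM in TE10 scramble libraries (SD, n = 3 each). CDT1 had 74.0, 76.9 and 72.9 CPM in the Kyse410 shUHRF1 libraries, against 39.6, 42.3 and 44.3 CPM in the Kyse410 scramble libraries. In TE10 CDT1 had 74.5, 65.9 and 76.4 CPM in the TE10 shUHRF1 libraries, against 68.1, 68.5 and 74.1 CPM in the TE10 scramble libraries. Every Kyse410 shUHRF1 library stood well above its controls, and the TE10 groups overlapped. CDT1 gave a log2 fold change of 0.83 (SE 0.0656, adjusted p = 9.48e-16) in Kyse410, and of 0.04 (SE 0.066, adjusted p = 0.677) in TE10, which was not called. Kyse410 exceeded TE10 in this response by 0.79 (SE 0.0931, adjusted p = 6.9e-10). CDC6 had 58.6, 59.8 and 57.9 CPM in the Kyse410 shUHRF1 libraries, against 39.2, 42.4 and 42.8 CPM in the Kyse410 scramble libraries. In TE10 CDC6 had 132.1, 132.3 and 129.6 CPM in the TE10 shUHRF1 libraries, against 121.6, 126.7 and 116.1 CPM in the TE10 scramble libraries. For CDC6 the Kyse410 groups were apart, and in TE10 the shUHRF1 libraries also lay above the scramble ones by a small margin. On the log2 scale the change of CDC6 was 0.51 (SE 0.0623, adjusted p = 1.07e-09) in Kyse410, and 0.11 (SE 0.0529, adjusted p = 0.0837) in TE10, which was not called. GMNN had 69.7, 77.5 and 74.3 CPM in the Kyse410 shUHRF1 libraries, against 52.5, 52.8 and 51.0 CPM in the Kyse410 scramble libraries. In TE10 GMNN had 92.5, 92.6 and 97.7 CPM in the TE10 shUHRF1 libraries, against 102.2, 101.1 and 109.9 CPM in the TE10 scramble libraries. Thus the GMNN libraries with shUHRF1 were the higher ones in Kyse410 and the lower ones in TE10, without overlap. This gave GMNN a log2 fold change of 0.50 (SE 0.06, adjusted p = 4.82e-10) in Kyse410, and of -0.15 (SE 0.0573, adjusted p = 0.0338) in TE10. For GMNN the response in Kyse410 exceeded that in TE10 by 0.65 (SE 0.083, adjusted p = 5.31e-09). The TE10 call of GMNN was lost without TE10 shUHRF1 replicate 1, TE10 shUHRF1 replicate 2 or TE10 scramble replicate 3 and under RLE scaling, DESeq2 or the stricter filter, and over all 14 alternatives its log2 value ran from -0.18 to -0.10 and its adjusted p from 0.0208 to 0.227.

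CDC45 and the 4 GINS subunits join the MCM ring to make the active helicase, and the kinase CDC7 with its activator DBF4 triggers the step. All 7 genes rose in Kyse410, with log2 fold changes of 0.21 to 0.89, and in TE10 CDC45 rose while GINS1, GINS3 and GINS4 fell. The 7 together gave 246.6 ± 9.8 CPM in Kyse410 shUHRF1 libraries and 187.7 ± 10.8 CPM in Kyse410 scramble libraries, and 296.5 ± 7.7 CPM in TE10 shUHRF1 libraries and 316.5 ± 9.88 CPM in TE10 scramble libraries (SD, n = 3 each). GINS1 had 34.4, 33.9 and 35.3 CPM in the Kyse410 shUHRF1 libraries, against 25.9, 27.9 and 26.4 CPM in the Kyse410 scramble libraries. In TE10 GINS1 had 37.8, 36.6 and 41.8 CPM in the TE10 shUHRF1 libraries, against 48.5, 44.1 and 53.2 CPM in the TE10 scramble libraries. For GINS1 the shUHRF1 libraries were above the controls in Kyse410 and below them in TE10, with no overlap in either line. As log2 fold changes of GINS1 these were 0.37 (SE 0.0826, adjusted p = 0.000168) in Kyse410, and -0.33 (SE 0.0809, adjusted p = 0.00084) in TE10. Its response in Kyse410 exceeded that in TE10 by 0.70 (SE 0.116, adjusted p = 1.91e-06). GINS4 had 7.83, 10.2 and 6.71 CPM in the Kyse410 shUHRF1 libraries, against 5.84, 5.91 and 5.77 CPM in the Kyse410 scramble libraries. In TE10 GINS4 had 20.4, 21.0 and 20.8 CPM in the TE10 shUHRF1 libraries, against 26.6, 30.5 and 28.5 CPM in the TE10 scramble libraries. GINS4 was apart in both lines, in opposite directions, and its Kyse410 scramble libraries rest on as few as 58 reads. In log2 fold change GINS4 stood at 0.52 (SE 0.151, adjusted p = 0.00351) in Kyse410, and at -0.46 (SE 0.111, adjusted p = 0.000693) in TE10. Kyse410 exceeded TE10 in this response by 0.98 (SE 0.188, adjusted p = 2.76e-05). GINS3 had 26.6, 29.4 and 28.9 CPM in the Kyse410 shUHRF1 libraries, against 19.9, 23.0 and 23.0 CPM in the Kyse410 scramble libraries. In TE10 GINS3 had 40.1, 33.8 and 42.0 CPM in the TE10 shUHRF1 libraries, against 40.9, 48.1 and 46.7 CPM in the TE10 scramble libraries. GINS3 was higher with shUHRF1 in every Kyse410 library, and in TE10 1 shUHRF1 library came within the range of the scramble libraries. The log2 fold change of GINS3 was 0.37 (SE 0.0929, adjusted p = 0.000724) in Kyse410, and -0.23 (SE 0.0869, adjusted p = 0.0303) in TE10. For GINS3 the response in Kyse410 exceeded that in TE10 by 0.60 (SE 0.127, adjusted p = 0.000123). GINS3 lost its TE10 call without TE10 shUHRF1 replicate 1, TE10 shUHRF1 replicate 2, TE10 scramble replicate 2 or TE10 scramble replicate 3 and under RLE scaling, DESeq2 or the stricter filter, and over all 14 alternatives its log2 value ran from -0.30 to -0.14 and its adjusted p from 0.0121 to 0.246. In Kyse410 the call of GINS4 was lost without Kyse410 shUHRF1 replicate 2, and over all 14 alternatives its log2 value ran from 0.35 to 0.63 and its adjusted p from 0.000812 to 0.0884. Antisense genes of GENCODE 29 share 21.2% of the exon bases of GINS4 and 10.9% of those of GINS3. Neither was found among the counted genes, and reads of these pairs cannot be told apart.

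The fourth subunit, GINS2, rose in Kyse410 and was not called in TE10. GINS2 had 12.3, 10.5 and 12.9 CPM in the Kyse410 shUHRF1 libraries, against 5.35, 7.64 and 6.34 CPM in the Kyse410 scramble libraries. In TE10 GINS2 had 20.7, 18.0 and 18.8 CPM in the TE10 shUHRF1 libraries, against 15.3, 19.6 and 16.0 CPM in the TE10 scramble libraries. Its Kyse410 groups were apart at these low levels, and its TE10 groups overlapped. GINS2 gave a log2 fold change of 0.89 (SE 0.146, adjusted p = 8.63e-07) in Kyse410, and of 0.18 (SE 0.126, adjusted p = 0.281) in TE10, which was not called. Its response in Kyse410 exceeded that in TE10 by 0.72 (SE 0.193, adjusted p = 0.0023). CDC45 had 68.8, 73.8 and 69.8 CPM in the Kyse410 shUHRF1 libraries, against 48.5, 47.2 and 47.2 CPM in the Kyse410 scramble libraries. In TE10 CDC45 had 74.5, 85.1 and 84.5 CPM in the TE10 shUHRF1 libraries, against 69.6, 76.5 and 67.7 CPM in the TE10 scramble libraries. CDC45 libraries were apart in Kyse410, and in TE10 1 shUHRF1 library lay within the scramble range. On the log2 scale the change of CDC45 was 0.57 (SE 0.0643, adjusted p = 9.31e-11) in Kyse410, and 0.19 (SE 0.0644, adjusted p = 0.015) in TE10. For CDC45 the TE10 call was lost without TE10 shUHRF1 replicate 2, TE10 shUHRF1 replicate 3, TE10 scramble replicate 1 or TE10 scramble replicate 3, and over all 14 alternatives its log2 value ran from 0.15 to 0.28 and its adjusted p from 0.000981 to 0.0989. CDC7 and DBF4 had log2 fold changes of 0.21 (SE 0.0711, adjusted p = 0.0104) and 0.27 (SE 0.0842, adjusted p = 0.00583) in Kyse410. In TE10 they had -0.18 (SE 0.0786, adjusted p = 0.0579) and -0.04 (SE 0.0771, adjusted p = 0.706), neither of which was called. The Kyse410 call of CDC7 was lost without Kyse410 scramble replicate 1 or Kyse410 scramble replicate 3, and over all 14 alternatives its log2 value ran from 0.14 to 0.32 and its adjusted p from 0.000286 to 0.139.

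**Figure D2:**
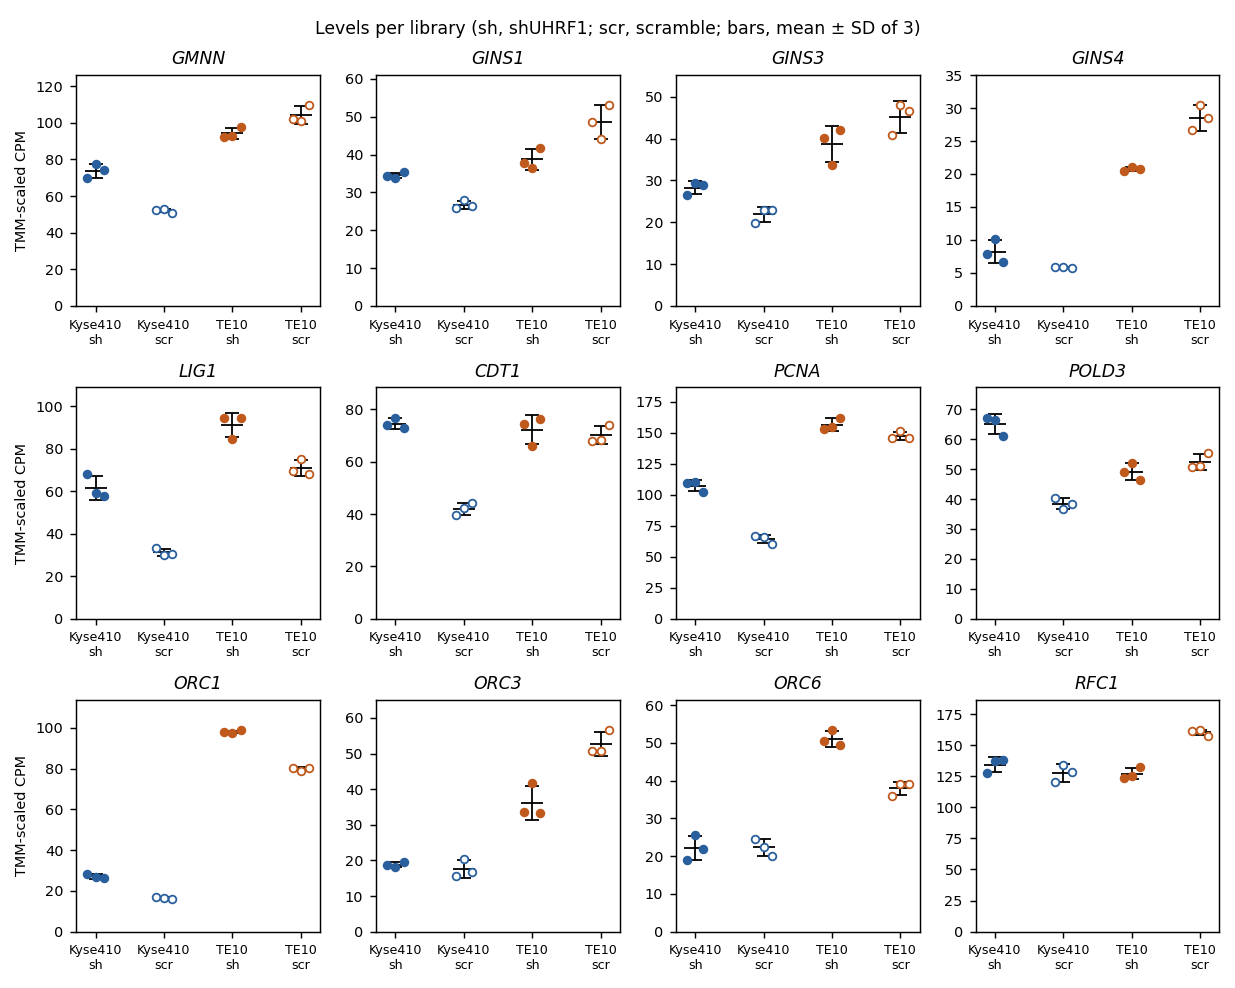
Levels in CPM (y axis, from 0, a scale of its own in each panel) of 12 replication genes in every library, with Kyse410 shUHRF1, Kyse410 scramble, TE10 shUHRF1 and TE10 scramble from left to right. Each point is 1 library, and the black line is the mean of 3 libraries with its SD. The means of GINS1, GINS3, GINS4 and GMNN are higher with shUHRF1 in Kyse410 and lower with shUHRF1 in TE10. For GINS3 in TE10, 1 shUHRF1 library lies within the scramble range. The TE10 calls of GINS3 and GMNN were lost under some alternatives. LIG1 and ORC1 are higher with shUHRF1 in both lines.

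PCNA encircles DNA as the sliding clamp and is also the platform that binds many other replication proteins, and the 5 RFC subunits load it. PCNA, RFC2 and RFC4 rose in Kyse410, RFC1 fell in TE10, and RFC3 and RFC5 were called in neither line. The 6 genes summed to 496.1 ± 14.2 CPM in Kyse410 shUHRF1 libraries and 408.3 ± 9.25 CPM in Kyse410 scramble libraries, and to 555.9 ± 10.5 CPM in TE10 shUHRF1 libraries and 574.9 ± 4.66 CPM in TE10 scramble libraries (SD, n = 3 each). PCNA had 109.4, 110.1 and 101.9 CPM in the Kyse410 shUHRF1 libraries, against 66.8, 65.7 and 60.3 CPM in the Kyse410 scramble libraries. In TE10 PCNA had 152.6, 154.2 and 162.1 CPM in the TE10 shUHRF1 libraries, against 145.6, 151.0 and 145.5 CPM in the TE10 scramble libraries. In Kyse410 the PCNA groups were far apart, while in TE10 the shUHRF1 libraries lay just above the scramble ones. This gave PCNA a log2 fold change of 0.74 (SE 0.0537, adjusted p = 4.89e-17) in Kyse410, and of 0.08 (SE 0.0499, adjusted p = 0.184) in TE10, which was not called. Kyse410 exceeded TE10 in this response by 0.65 (SE 0.0733, adjusted p = 1.86e-10). RFC2 had 56.8, 58.6 and 54.5 CPM in the Kyse410 shUHRF1 libraries, against 40.0, 34.2 and 37.4 CPM in the Kyse410 scramble libraries. In TE10 RFC2 had 48.8, 44.9 and 43.8 CPM in the TE10 shUHRF1 libraries, against 45.7, 47.7 and 46.1 CPM in the TE10 scramble libraries. RFC2 was higher with shUHRF1 in every Kyse410 library, and the TE10 groups overlapped. As log2 fold changes of RFC2 these were 0.60 (SE 0.0702, adjusted p = 2.43e-10) in Kyse410, and -0.02 (SE 0.0757, adjusted p = 0.865) in TE10, which was not called. For RFC2 the response in Kyse410 exceeded that in TE10 by 0.62 (SE 0.103, adjusted p = 2.03e-06). RFC1, the large subunit that is specific to this loader, had 123.7, 125.0 and 132.3 CPM in the TE10 shUHRF1 libraries, against 161.1, 161.8 and 157.6 CPM in the TE10 scramble libraries. The TE10 shUHRF1 libraries of RFC1 were all below the scramble ones, and the log2 fold change was -0.33 (SE 0.0505, adjusted p = 2.69e-07) there against 0.08 (SE 0.0484, adjusted p = 0.181) in Kyse410, which was not called. RFC4, a subunit shared with other clamp loaders, had log2 fold changes of 0.37 (SE 0.072, adjusted p = 1.89e-05) in Kyse410 and -0.08 (SE 0.077, adjusted p = 0.465) in TE10, which was not called.

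Among the polymerases, POLA1, POLA2, PRIM1 and PRIM2 make up polymerase alpha with primase, POLD1 to POLD3 belong to polymerase delta of the lagging strand, and POLE and POLE2 to polymerase epsilon of the leading strand. In Kyse410, 7 of the 9 rose and none fell, POLA1 and POLD2 being the ones not called. In TE10 POLD2 rose and POLA1 fell. The 9 genes summed to 770.4 ± 34.9 CPM in Kyse410 shUHRF1 libraries and 676.3 ± 18.5 CPM in Kyse410 scramble libraries, and to 889.9 ± 11.9 CPM in TE10 shUHRF1 libraries and 889.3 ± 9.94 CPM in TE10 scramble libraries (SD, n = 3 each). POLD3, an accessory subunit of polymerase delta, had 67.2, 66.5 and 61.2 CPM in the Kyse410 shUHRF1 libraries, against 40.3, 36.6 and 38.4 CPM in the Kyse410 scramble libraries. In TE10 POLD3 had 49.1, 51.9 and 46.2 CPM in the TE10 shUHRF1 libraries, against 50.7, 50.9 and 55.3 CPM in the TE10 scramble libraries. POLD3 libraries were apart in Kyse410 and overlapped in TE10, and the Kyse410 shUHRF1 libraries were the highest of all 12. In log2 fold change POLD3 stood at 0.76 (SE 0.0681, adjusted p = 8.86e-14) in Kyse410, and at -0.09 (SE 0.073, adjusted p = 0.335) in TE10, which was not called. Its response in Kyse410 exceeded that in TE10 by 0.85 (SE 0.0999, adjusted p = 6.84e-10). PRIM1, the catalytic subunit of primase, had 19.7, 19.3 and 19.5 CPM in the Kyse410 shUHRF1 libraries, against 13.3, 9.37 and 12.1 CPM in the Kyse410 scramble libraries. In TE10 PRIM1 had 19.6, 18.5 and 17.0 CPM in the TE10 shUHRF1 libraries, against 21.3, 24.4 and 19.8 CPM in the TE10 scramble libraries. PRIM1 with shUHRF1 was higher in every Kyse410 library, and in TE10 it was lower in every library by a margin close to the spread. The log2 fold change of PRIM1 was 0.74 (SE 0.117, adjusted p = 4.94e-07) in Kyse410, and -0.25 (SE 0.117, adjusted p = 0.0888) in TE10, which was not called. Kyse410 exceeded TE10 in this response by 0.98 (SE 0.166, adjusted p = 2.69e-06). A gene on the same strand shares 14.9% of the exon bases of PRIM1, and 1 shares 35.1% of those of POLA2. POLE2, the second subunit of polymerase epsilon, had 9.02, 10.6 and 13.1 CPM in the Kyse410 shUHRF1 libraries, against 6.57, 8.25 and 6.43 CPM in the Kyse410 scramble libraries. In TE10 POLE2 had 15.9, 16.5 and 14.3 CPM in the TE10 shUHRF1 libraries, against 17.7, 16.8 and 18.9 CPM in the TE10 scramble libraries. POLE2 was above its controls in Kyse410 and below them in TE10, at levels where a library holds as few as 68 reads. POLE2 gave a log2 fold change of 0.62 (SE 0.145, adjusted p = 0.000317) in Kyse410, and of -0.20 (SE 0.129, adjusted p = 0.234) in TE10, which was not called. For POLE2 the response in Kyse410 exceeded that in TE10 by 0.82 (SE 0.194, adjusted p = 0.000571).

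For the catalytic subunits of the 3 polymerases, log2 fold changes in Kyse410 were 0.53 (SE 0.0648, adjusted p = 1.2e-09) for POLD1, 0.13 (SE 0.0447, adjusted p = 0.0167) for POLE and 0.13 (SE 0.0623, adjusted p = 0.0684) for POLA1, the last of which was not called. In TE10 POLA1 fell, with -0.18 (SE 0.0607, adjusted p = 0.0144), and neither POLD1, with 0.04 (SE 0.0605, adjusted p = 0.62), nor POLE, with 0.01 (SE 0.0469, adjusted p = 0.926), was called. POLD2 rose in TE10, with 0.13 (SE 0.0445, adjusted p = 0.0189), and had -0.03 (SE 0.0445, adjusted p = 0.591) in Kyse410, which was not called. POLA1 lost its TE10 call without TE10 shUHRF1 replicate 1 or TE10 scramble replicate 2 and under DESeq2, and over all 14 alternatives its log2 value ran from -0.21 to -0.12 and its adjusted p from 0.00562 to 0.18. In TE10 the call of POLD2 was lost without TE10 shUHRF1 replicate 3, TE10 scramble replicate 2 or TE10 scramble replicate 3, and over all 14 alternatives its log2 value ran from 0.12 to 0.17 and its adjusted p from 0.00257 to 0.058. For POLE the Kyse410 call was lost without Kyse410 shUHRF1 replicate 1 or Kyse410 scramble replicate 2, and over all 14 alternatives its log2 value ran from 0.07 to 0.17 and its adjusted p from 0.00221 to 0.164. The Kyse410 call of PRIM2 was lost without Kyse410 shUHRF1 replicate 3, Kyse410 scramble replicate 1 or Kyse410 scramble replicate 2 and under DESeq2, no filter or a fit of only these libraries, and over all 14 alternatives its log2 value ran from 0.25 to 0.49 and its adjusted p from 0.0226 to 0.267. PRIM2, the regulatory subunit of primase, had the lowest count of the 52 genes, 47 reads in 1 library, and a log2 fold change of 0.40 (SE 0.166, adjusted p = 0.0414) in Kyse410.

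FEN1 trims the flap and LIG1 seals the nick between Okazaki fragments, and RPA1, RPA2 and RPA3 form the complex that coats single-stranded DNA. LIG1 is also known as a partner of UHRF1, which binds its methylated form. All 5 genes rose in Kyse410, and FEN1, LIG1 and RPA1 rose in TE10. Their sum was 341.6 ± 19.9 CPM in Kyse410 shUHRF1 libraries and 233.8 ± 3.69 CPM in Kyse410 scramble libraries, and 530.4 ± 19.7 CPM in TE10 shUHRF1 libraries and 459.6 ± 1.56 CPM in TE10 scramble libraries (SD, n = 3 each). LIG1 had 68.2, 59.1 and 57.9 CPM in the Kyse410 shUHRF1 libraries, against 33.2, 30.0 and 30.6 CPM in the Kyse410 scramble libraries. In TE10 LIG1 had 94.7, 84.6 and 94.3 CPM in the TE10 shUHRF1 libraries, against 69.5, 75.1 and 68.3 CPM in the TE10 scramble libraries. LIG1 libraries with shUHRF1 were the higher ones in both lines, without overlap, and LIG1 had the largest log2 fold change of the 52 genes in Kyse410. On the log2 scale the change of LIG1 was 0.98 (SE 0.0728, adjusted p = 1.15e-16) in Kyse410, and 0.36 (SE 0.0666, adjusted p = 1.33e-05) in TE10. Its response in Kyse410 exceeded that in TE10 by 0.62 (SE 0.099, adjusted p = 1.12e-06). RPA2 had 41.5, 40.4 and 36.4 CPM in the Kyse410 shUHRF1 libraries, against 23.7, 25.9 and 26.5 CPM in the Kyse410 scramble libraries. In TE10 RPA2 had 55.6, 51.9 and 54.2 CPM in the TE10 shUHRF1 libraries, against 54.2, 53.4 and 50.7 CPM in the TE10 scramble libraries. The Kyse410 groups of RPA2 were apart, and the TE10 groups overlapped. This gave RPA2 a log2 fold change of 0.65 (SE 0.0785, adjusted p = 8.21e-10) in Kyse410, and of 0.03 (SE 0.0733, adjusted p = 0.764) in TE10, which was not called. Kyse410 exceeded TE10 in this response by 0.61 (SE 0.107, adjusted p = 5.95e-06). FEN1 and RPA1 had log2 fold changes of 0.59 (SE 0.0716, adjusted p = 7.92e-10) and 0.42 (SE 0.05, adjusted p = 5.16e-10) in Kyse410, and of 0.19 (SE 0.0625, adjusted p = 0.0112) and 0.20 (SE 0.0481, adjusted p = 0.000741) in TE10. FEN1 lost its TE10 call without TE10 scramble replicate 1, and over all 14 alternatives its log2 value ran from 0.17 to 0.24 and its adjusted p from 0.0024 to 0.0615. In Kyse410 the call of RPA3 was lost without Kyse410 shUHRF1 replicate 2, Kyse410 shUHRF1 replicate 3, Kyse410 scramble replicate 1, Kyse410 scramble replicate 2 or Kyse410 scramble replicate 3 and under DESeq2 or no filter, and over all 14 alternatives its log2 value ran from 0.18 to 0.32 and its adjusted p from 0.0111 to 0.204.

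Of the nucleotide supply genes, RRM1 and RRM2 encode ribonucleotide reductase, TYMS makes thymidylate from deoxyuridylate, TK1 salvages thymidine and DUT removes dUTP. In Kyse410 all but DUT rose, and in TE10 RRM2, TK1 and DUT rose. They summed to 974.9 ± 7.94 CPM in Kyse410 shUHRF1 libraries and 740.8 ± 18.7 CPM in Kyse410 scramble libraries, and to 1108.7 ± 7.98 CPM in TE10 shUHRF1 libraries and 1021.1 ± 20.5 CPM in TE10 scramble libraries (SD, n = 3 each). RRM2, the subunit that limits the reductase in S phase, had 323.2, 327.7 and 317.3 CPM in the Kyse410 shUHRF1 libraries, against 204.2, 209.9 and 191.1 CPM in the Kyse410 scramble libraries. In TE10 RRM2 had 397.1, 390.1 and 382.6 CPM in the TE10 shUHRF1 libraries, against 319.9, 294.7 and 314.1 CPM in the TE10 scramble libraries. RRM2 was higher with shUHRF1 in every library of both lines. As log2 fold changes of RRM2 these were 0.68 (SE 0.0409, adjusted p = 3.97e-20) in Kyse410, and 0.33 (SE 0.0407, adjusted p = 1.56e-09) in TE10. TYMS had 104.3, 104.9 and 108.9 CPM in the Kyse410 shUHRF1 libraries, against 76.2, 76.8 and 74.4 CPM in the Kyse410 scramble libraries. In TE10 TYMS had 118.4, 112.0 and 128.5 CPM in the TE10 shUHRF1 libraries, against 123.8, 117.5 and 117.1 CPM in the TE10 scramble libraries. The rise of TYMS was clear of the spread in Kyse410, and the TE10 groups overlapped. In log2 fold change TYMS stood at 0.48 (SE 0.0536, adjusted p = 6.22e-11) in Kyse410, and at 0.00 (SE 0.0534, adjusted p = 0.98) in TE10, which was not called. ENOSF1, antisense to TYMS, shares 39.1% of the exon bases of TYMS and had log2 fold changes of 0.31 in Kyse410 and -0.13 in TE10. Genes also overlap 20.2% of the exon bases of RRM2 and 14.5% of those of DUT. RRM1 rose in Kyse410, with 0.26 (SE 0.0406, adjusted p = 3.7e-07), and had -0.07 (SE 0.0408, adjusted p = 0.179) in TE10, which was not called. TK1 gave nearly the same response in both lines, 0.28 (SE 0.0592, adjusted p = 6.13e-05) in Kyse410 and 0.26 (SE 0.0615, adjusted p = 0.000592) in TE10, with a difference of 0.03 (95% interval -0.14 to 0.20).

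Claspin, from CLSPN, links stalled forks to the checkpoint kinase CHEK1, and CHAF1A and CHAF1B are subunits of the assembly factor that places new histones behind the fork. CLSPN rose in Kyse410 and the CHAF1 genes rose in both lines. The 3 summed to 183.5 ± 2.18 CPM in Kyse410 shUHRF1 libraries and 142.0 ± 4.25 CPM in Kyse410 scramble libraries, and to 245.1 ± 2.02 CPM in TE10 shUHRF1 libraries and 209.1 ± 7.59 CPM in TE10 scramble libraries (SD, n = 3 each). CLSPN had 33.6, 32.0 and 28.4 CPM in the Kyse410 shUHRF1 libraries, against 19.1, 20.0 and 15.0 CPM in the Kyse410 scramble libraries. In TE10 CLSPN had 67.9, 62.8 and 67.0 CPM in the TE10 shUHRF1 libraries, against 61.0, 63.8 and 63.8 CPM in the TE10 scramble libraries. CLSPN libraries were apart in Kyse410, and in TE10 1 shUHRF1 library lay within the scramble range. The log2 fold change of CLSPN was 0.80 (SE 0.0908, adjusted p = 1.26e-10) in Kyse410, and 0.07 (SE 0.0739, adjusted p = 0.513) in TE10, which was not called. For CLSPN the response in Kyse410 exceeded that in TE10 by 0.73 (SE 0.117, adjusted p = 1.04e-06). CHAF1B had 45.1, 51.0 and 45.4 CPM in the Kyse410 shUHRF1 libraries, against 33.0, 32.0 and 35.2 CPM in the Kyse410 scramble libraries. In TE10 CHAF1B had 52.2, 57.8 and 56.2 CPM in the TE10 shUHRF1 libraries, against 47.1, 44.5 and 41.1 CPM in the TE10 scramble libraries. CHAF1B with shUHRF1 was above its controls in every library of both lines. CHAF1B gave a log2 fold change of 0.50 (SE 0.0748, adjusted p = 1.29e-07) in Kyse410, and of 0.33 (SE 0.0761, adjusted p = 0.00043) in TE10. CHAF1A had log2 fold changes of 0.21 (SE 0.0537, adjusted p = 0.000704) in Kyse410 and 0.28 (SE 0.0554, adjusted p = 4.25e-05) in TE10.

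**Figure D3:**
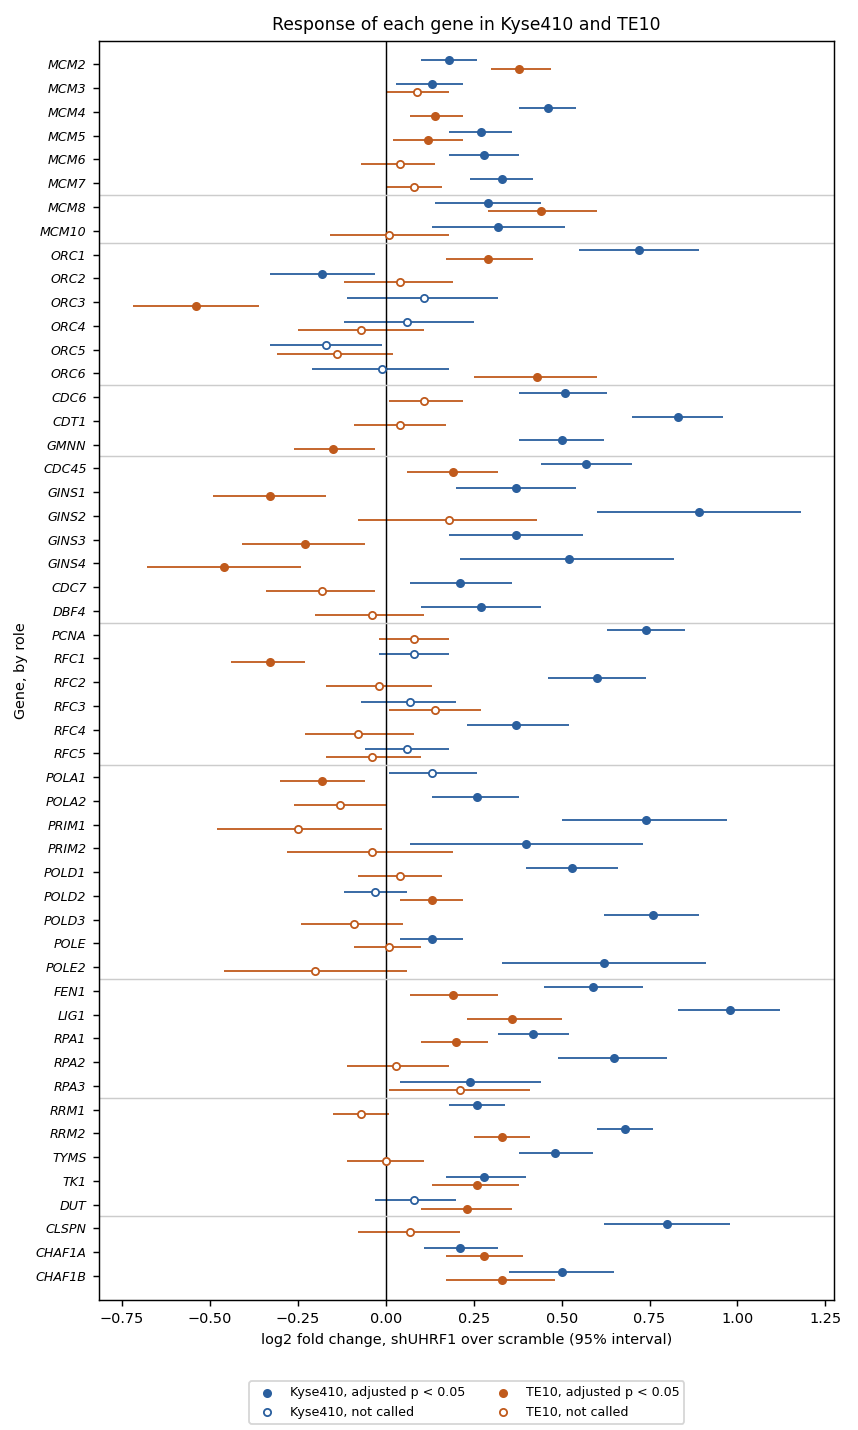
Log2 fold change of each of the 52 genes (y axis, by role), shUHRF1 over scramble (x axis), in Kyse410 (blue) and TE10 (orange). Bars are 95% intervals and filled points are called at an adjusted p under 0.05. The Kyse410 points lie between -0.18 and 0.98, most of them right of 0, and the TE10 points between -0.54 and 0.44.

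The response itself was compared between the lines as Kyse410 minus TE10, and it differed for 36 of the 52 genes, where 38.8% of all genes differed. The signed log2 response was higher in Kyse410 for 33 of the 52 genes, where 19.0% of all tested genes were called higher, and lower for 3, where 19.9% were called lower, with a median of 0.36 against -0.01 over all genes. The fold change of UHRF1 itself was -1.22 in Kyse410 and -1.06 in TE10, a difference of -0.16 (SE 0.0785, adjusted p = 0.0931) that was not called. The largest differences were those of GINS4 and PRIM1, at 0.98 each, followed by POLD3 at 0.85 and POLE2 at 0.82. The difference was called positive for all 7 helicase activation genes, all 3 licensing genes, 4 of the 6 clamp genes and 6 of the 9 polymerase genes. For RFC1, POLA1 and ORC3 among the positive differences, the gene fell in TE10 and was not called in Kyse410. The signed response was lower in Kyse410 for ORC6, with a difference of -0.44 (SE 0.13, adjusted p = 0.00555), MCM2, with -0.20 (SE 0.0569, adjusted p = 0.00375), and POLD2, with -0.16 (SE 0.063, adjusted p = 0.0399). For the ORC genes other than ORC1, ORC3 and ORC6 the difference was not called. For POLD2 the line-difference call was lost without TE10 shUHRF1 replicate 1, TE10 shUHRF1 replicate 3, TE10 scramble replicate 1, TE10 scramble replicate 2, TE10 scramble replicate 3, Kyse410 shUHRF1 replicate 2, Kyse410 shUHRF1 replicate 3 or Kyse410 scramble replicate 1 and under library totals or no filter, and over all 19 alternatives its log2 value ran from -0.21 to -0.11 and its adjusted p from 0.00261 to 0.198. The line-difference call of DBF4 was lost without TE10 shUHRF1 replicate 1, TE10 scramble replicate 3, Kyse410 shUHRF1 replicate 3 or Kyse410 scramble replicate 3 and under DESeq2, and over all 19 alternatives its log2 value ran from 0.26 to 0.36 and its adjusted p from 0.0122 to 0.0919. The comparison is the difference of the fold changes of both lines and shares every library with them, shUHRF1 and scramble alike, so it is no independent evidence on them.

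Between the scramble controls, the replication genes were lower in Kyse410 than in TE10. Of the 52 genes 47 were called, where 73.7% of all genes were. Of these 46 were called lower, where 37.1% of all genes were, and 1 was called higher, where 36.7% were, with a median log2 difference of -0.72 against 0.00 over all genes. Libraries did not overlap for 44 lower genes and for 1 higher gene, where 38.3% and 37.8% of all genes did so. DUT was the gene that was higher, with 0.26 (SE 0.0624, adjusted p = 0.000259), and MCM2, MCM8, CDC7, RFC5 and POLE were not called. GINS4 had the largest difference, with 5.84, 5.91 and 5.77 CPM in the Kyse410 scramble libraries, against 26.6, 30.5 and 28.5 CPM in the TE10 scramble libraries. ORC1 came next, with 17.2, 16.3 and 15.9 CPM in the Kyse410 scramble libraries, against 80.2, 78.9 and 80.3 CPM in the TE10 scramble libraries. PRIM2 had 4.38, 4.79 and 5.30 CPM in the Kyse410 scramble libraries, against 19.0, 22.2 and 22.0 CPM in the TE10 scramble libraries. In all 3 genes every Kyse410 library was below every TE10 library, and the log2 differences were -2.29 (SE 0.129), -2.27 (SE 0.074) and -2.13 (SE 0.141), with adjusted p of 3.35e-22, 1.57e-32 and 1.92e-19. CLSPN, MCM4, ORC3 and CDC6 followed with log2 differences of -1.80 (SE 0.085), -1.61 (SE 0.0403), -1.60 (SE 0.0944) and -1.55 (SE 0.0586). The MCM ring was uneven in this comparison, from -1.61 (SE 0.0403) for MCM4 and -0.99 (SE 0.043) for MCM7 to -0.04 (SE 0.0406) for MCM2, which was not called. By role, all ORC, licensing, single-strand binding and ligation, and chromatin assembly genes were called lower, as were 6 of 7 helicase activation genes and 8 of 9 polymerase genes.

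The weakest of these scramble calls depended on scaling or on single libraries. MCM5 lost its scramble call without TE10 scramble replicate 1, Kyse410 scramble replicate 2 or Kyse410 scramble replicate 3 and under RLE scaling, library totals or DESeq2, and over all 14 alternatives its log2 value ran from -0.17 to -0.03 and its adjusted p from 0.00521 to 0.617. The call of ORC2 between scramble controls was lost without TE10 scramble replicate 1, TE10 scramble replicate 2, TE10 scramble replicate 3, Kyse410 scramble replicate 2 or Kyse410 scramble replicate 3 and under RLE scaling, library totals, DESeq2 or no filter, and over all 14 alternatives its log2 value ran from -0.21 to -0.07 and its adjusted p from 0.0288 to 0.39. For POLA2 the scramble call was lost without Kyse410 scramble replicate 2 and under library totals or DESeq2, and over all 14 alternatives its log2 value ran from -0.23 to -0.09 and its adjusted p from 0.00305 to 0.188. The scramble call of TK1 was lost without Kyse410 scramble replicate 2 and under library totals or DESeq2, and over all 14 alternatives its log2 value ran from -0.22 to -0.09 and its adjusted p from 0.00243 to 0.192. CHAF1A lost its scramble call without TE10 scramble replicate 1 and under library totals, and over all 14 alternatives its log2 value ran from -0.23 to -0.08 and its adjusted p from 0.000586 to 0.198. The Kyse410 scramble libraries enter both this comparison and the Kyse410 fold changes, with opposite signs. The values are therefore not independent, and an inverse relation between them is partly built in. Set side by side, GINS4 was -2.29 between the scramble controls and 0.52 in Kyse410 with shUHRF1, ORC1 -2.27 and 0.72, LIG1 -1.18 and 0.98, and DUT 0.26 and 0.08. Other genes broke that order, such as ORC3 with -1.60 and 0.11, ORC6 with -0.76 and -0.01, and POLD3 with -0.44 and 0.76. These genes are examples, and a relation between such values was not tested. The summed level of the 52 genes stayed lower in every Kyse410 shUHRF1 library, at 4595 to 4678 CPM, than in every TE10 scramble library, at 5732 to 5752 CPM.

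**Figure D4:**
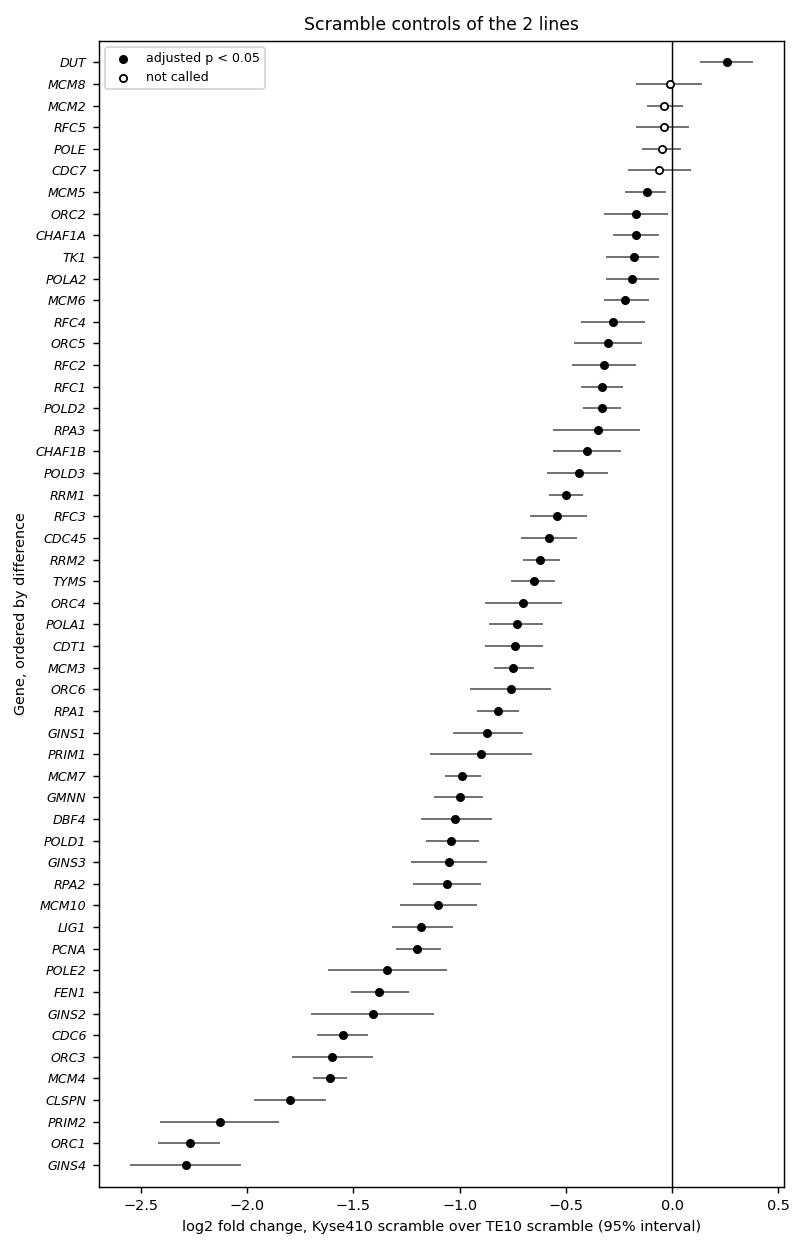
Log2 fold change of each of the 52 genes (y axis, ordered by value), Kyse410 scramble over TE10 scramble (x axis), with 95% intervals. Filled points are called at an adjusted p under 0.05. All genes but DUT, at 0.26, lie left of 0, down to -2.29 for GINS4.

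Per kilobase of annotated exon the levels of the genes could be set against each other. In scramble libraries RRM1, POLD2 and MCM2 were the highest of the 52 genes in Kyse410, and RRM1 and PCNA in TE10. RRM1 reached 74.8 CPM per kb in Kyse410 scramble libraries and 105.8 in TE10 scramble libraries, PCNA 43.7 CPM per kb in Kyse410 scramble libraries and 100.2 in TE10 scramble libraries, POLD2 60.5 CPM per kb in Kyse410 scramble libraries and 75.9 in TE10 scramble libraries and MCM2 59.5 CPM per kb in Kyse410 scramble libraries and 61.1 in TE10 scramble libraries. The lowest in Kyse410 were PRIM2 and GINS4, with 1.03 CPM per kb in Kyse410 scramble libraries and 4.51 in TE10 scramble libraries for PRIM2 and 1.07 CPM per kb in Kyse410 scramble libraries and 5.21 in TE10 scramble libraries for GINS4. By this measure the MCM ring, whose subunits work in equal numbers, ran from 20.0 CPM per kb for MCM5 to 59.5 for MCM2 in Kyse410 scramble libraries. In TE10 scramble libraries it ran from 21.8 for MCM5 to 76.9 for MCM7. The order depends on the length used, since MCM5 has the longest joined exons of the ring, 7.34 kb. Without division by length, MCM6 was lowest in both lines, with mean levels of 90.3 CPM in Kyse410 scramble and 105.1 CPM in TE10 scramble libraries. The highest were then MCM2 in Kyse410, 291.9 CPM, and MCM4 in TE10, 470.4 CPM. The exon lengths are those of all transcripts of a gene joined in GENCODE 29, not of the transcripts these cells use, so these levels are approximate.

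Other genes of the same processes were counted from lists chosen by name. The counts are read against all tested genes, of which 22.6% were called higher and 26.7% lower in Kyse410, and 18.8% higher and 20.0% lower in TE10. Of 28 further origin firing and fork genes, 14 rose and 4 fell in Kyse410, and 10 rose and 2 fell in TE10, with medians of 0.23 and 0.03. The shares called higher were above those of all genes in both lines, and the shares called lower, 14.3% in Kyse410 and 7.14% in TE10, were below them. The histone chaperone ASF1B moved in opposite directions, with log2 fold changes of 0.81 (SE 0.0739, adjusted p = 1.36e-13) in Kyse410 and -0.60 (SE 0.0786, adjusted p = 1.11e-08) in TE10, while its paralog ASF1A was 0.62 (SE 0.0949) in TE10. Also higher in Kyse410 were TIMELESS of the fork protection complex, 0.56 (SE 0.0588), and DTL, which marks CDT1 for destruction in S phase, 0.53 (SE 0.0577). DTL was called higher in TE10 too, 0.24 (SE 0.0615), where TIMELESS was not called. Lower in Kyse410 were POLE3, -0.37 (SE 0.0487), RNASEH2C, -0.26 (SE 0.0624), and TOP1, -0.19 (SE 0.0448). RNASEH2C, 0.34 (SE 0.0631), and TOP1, 0.12 (SE 0.0466), were instead called higher in TE10, where POLE3 was not called. In TE10 DONSON, 0.32 (SE 0.055), and CHTF18, 0.35 (SE 0.0637), were higher, and CHTF8, -0.43 (SE 0.0912), was lower. DONSON, CHTF18 and CHTF8 were called in the same directions in Kyse410, at 0.31 (SE 0.0557), 0.50 (SE 0.0603) and -0.19 (SE 0.082). Of 10 checkpoint genes, 2 rose and 5 fell in Kyse410, and 1 rose and 2 fell in TE10, and of these counts the 5 lower calls in Kyse410 lie above the share of all genes. The kinase ATR fell in both lines, with -0.55 (SE 0.068, adjusted p = 1.37e-09) in Kyse410 and -0.22 (SE 0.0669, adjusted p = 0.00603) in TE10, as did WEE1, with -0.35 (SE 0.0502, adjusted p = 5.58e-08) and -0.25 (SE 0.0596, adjusted p = 0.000662). RAD9A of the checkpoint clamp rose in both, with 0.34 (SE 0.099) in Kyse410 and 0.34 (SE 0.101) in TE10. In Kyse410 CHEK1 rose, 0.24 (SE 0.0728), and CHEK2 fell, -0.33 (SE 0.0701).

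Of 29 nucleotide synthesis genes outside the 52, 6 (20.7%) rose and 10 (34.5%) fell in Kyse410, and 5 (17.2%) rose and 5 (17.2%) fell in TE10, with medians of -0.06 and 0.06. These shares are near those of all genes. CAD, which starts pyrimidine synthesis, fell in both lines, with -0.53 (SE 0.0486, adjusted p = 1.48e-13) in Kyse410 and -0.30 (SE 0.0463, adjusted p = 4.45e-07) in TE10. In Kyse410 PRPS2 rose by 0.88 (SE 0.0827) and GMPS by 0.19 (SE 0.0469), while the purine enzyme PFAS, -0.47 (SE 0.0633), and NME1, -0.63 (SE 0.0999), fell. GMPS and NME1 went the opposite way in TE10, at -0.14 (SE 0.0472) and 0.21 (SE 0.0853). PRPS2 and PFAS were not called there. In TE10 IMPDH1, 0.44 (SE 0.0484), DCTD, 0.20 (SE 0.0587), and CTPS1, 0.15 (SE 0.0448), rose, and SAMHD1, which breaks down deoxynucleotides, fell, with -0.59 (SE 0.0874). IMPDH1, 0.15 (SE 0.0586), CTPS1, 0.18 (SE 0.049), and SAMHD1, -0.36 (SE 0.0892), were called in the same directions in Kyse410. DCTD was called lower there, -0.15 (SE 0.0586).

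Regulators of the G1 to S passage moved both ways in both lines. Of 29 E2F, pocket protein and cyclin genes 13 rose and 9 fell in Kyse410, and 12 rose and 7 fell in TE10. The shares called lower, 31.0% and 24.1%, are near those of all genes, and the shares called higher are 44.8% and 41.4%. Cyclin E2, from CCNE2, and the repressor E2F7 had the strongest calls among the rises in Kyse410 together with CDK2, with 1.53 (SE 0.0917), 1.38 (SE 0.0634) and 0.67 (SE 0.0507). CDKN2A, -0.88 (SE 0.0642), CDK6, -0.60 (SE 0.0453), and CDK4, -0.50 (SE 0.0425), fell. In TE10 E2F1, 0.63 (SE 0.0748), the phosphatase CDC25A, 0.52 (SE 0.0577), and the CDK inhibitor CDKN1A, 0.46 (SE 0.0536), rose, and RB1, -0.36 (SE 0.0592), RBL2, -0.38 (SE 0.0704), and E2F5, -0.49 (SE 0.0892), fell. E2F1 was also called higher in Kyse410, 0.62 (SE 0.0638), and E2F5 was also called lower there, -0.75 (SE 0.0906). The mitosis genes gave counts like those of the replication genes: of 28, 21 (75.0%) rose and 1 (3.57%) fell in Kyse410, and 7 (25.0%) rose and 7 (25.0%) fell in TE10, and all 28 were called lower in Kyse410 than in TE10 scramble libraries. In Kyse410 MKI67, 0.71 (SE 0.0357), TOP2A, 0.72 (SE 0.0424), and NUSAP1, 0.76 (SE 0.0482), rose, and ANLN, -0.23 (SE 0.0441), fell. In TE10 FOXM1, 0.24 (SE 0.0377), MYBL2, 0.45 (SE 0.0407), and PLK1, 0.43 (SE 0.0439), rose, and TOP2A, -0.25 (SE 0.0428), CENPF, -0.28 (SE 0.0403), and ASPM, -0.36 (SE 0.0518), fell. All 13 mitochondrially encoded genes rose in Kyse410, with a median of 0.69, while in TE10 1 rose and 7 fell.

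**Figure D5:**
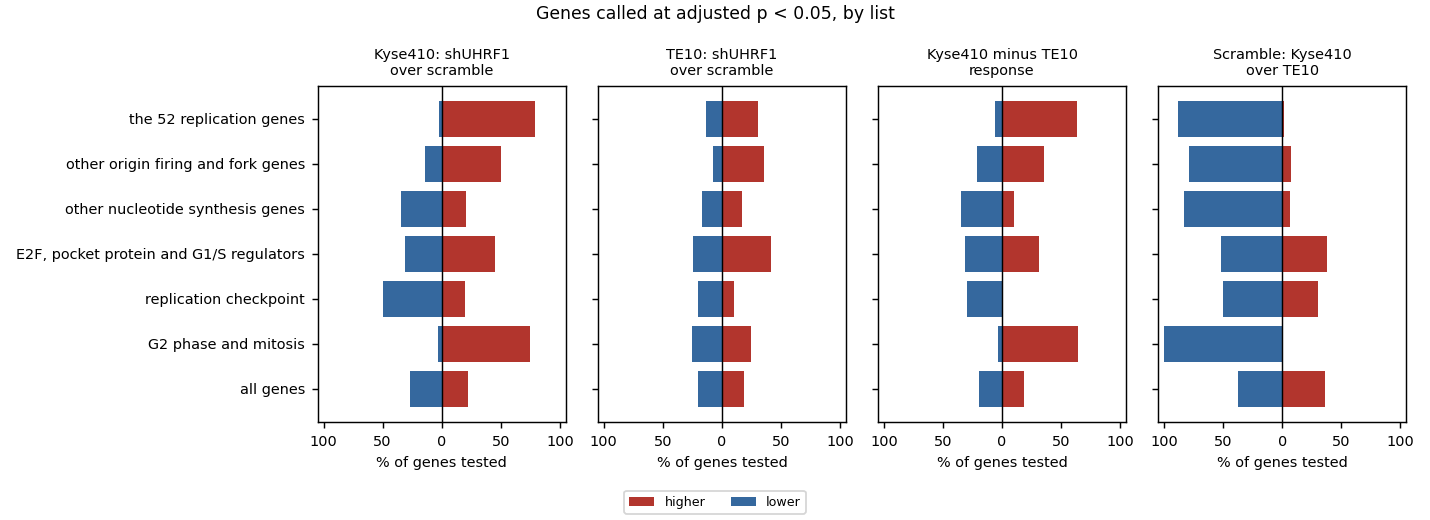
Share of genes called higher and lower in percent (x axis) for the 52 replication genes, the other lists and all 16060 genes tested (y axis), in 1 panel for each of the 4 comparisons. In the Kyse410 panel the replication and mitosis lists have mostly higher calls, 41 of 52 and 21 of 28 genes, against 22.6% of all genes. In the scramble panel the replication list has 46 of 52 genes lower in Kyse410 and the mitosis list all 28.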

How the data were processed

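Polyadenylated RNA was measured in 12 libraries, 3 in each of 4 groups taken from the titles. The deposited files hold raw counts per gene and HTSeq's counters, which were left out of library sizes and held, as reads of no feature, 42.88 to 44.66% of all reads. Per the submitters' processing notes the authors used bcl2fastq 2.19, HISAT2 2.1.0, HTSeq 0.9.1, DESeq2 and GRCh37.p13. Neither annotation release nor strandedness is given in the sources used here.

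Of 57820 identifiers, 51997 were matched to symbols by the GENCODE 29 annotation, with 98.9% of gene reads, and the identifier ENSG00000034063 was assigned to UHRF1 by hand. Counts were tested with edgeR 4.0.16 in R 4.3.3: filterByExpr kept 16060 genes, TMM scaled the libraries, and 1 quasi-likelihood fit of 4 group means had 8 residual degrees of freedom. Calls are Benjamini-Hochberg adjusted p-values under 0.05 over all tested genes. Fold changes are log2 with standard errors (SE). Replicates differed by 1.58 to 3.07 times counting error, as chi-square per degree of freedom for genes of 40 or more reads in a pair, and each library was counted as 1 sample. The steps were tested on simulated data. Alternatives were RLE scaling, library totals, TMM without mitochondrial genes, DESeq2 1.42.0, no filter, a stricter filter of 1 CPM in every library of at least 1 group, only the libraries compared, a replicate block and leaving out each library.

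The genes and lists were chosen with earlier results of these data known. Per-library values are given for the 2 genes of each role with the largest change in either line, for genes called in opposite directions, and for those whose response differed between lines by at least 0.5. From each other list the 3 smallest adjusted p in each direction and line were named, so a gene named for 1 line can also be called in the other. A gene that this rule would name is not reported here. Promoters are RefSeq's for GRCh38.p14. No position of another build is used.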

Additional observations from a re-analysis of the deposited data

Results flagged for a closer look

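The response to shUHRF1 differed between the lines for 36 of the 52 replication genes, by edgeR's quasi-likelihood test of the difference with Benjamini-Hochberg adjustment over 16060 genes, where 38.8% of all genes differed. The values are log2 responses in Kyse410 minus those in TE10.

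Among origin licensing genes the difference was 0.79 for CDT1, 0.65 for GMNN, 0.65 for ORC3, 0.43 for ORC1 and 0.39 for CDC6. For the helicase it was 0.32 for MCM4, 0.25 for MCM7 and 0.24 for MCM6. For its activation it was 0.98 for GINS4, 0.72 for GINS2, 0.70 for GINS1, 0.60 for GINS3, 0.40 for CDC7, 0.38 for CDC45 and 0.31 for DBF4. The clamp and its loader gave 0.65 for PCNA, 0.62 for RFC2, 0.45 for RFC4 and 0.41 for RFC1. The polymerases gave 0.98 for PRIM1, 0.85 for POLD3, 0.82 for POLE2, 0.48 for POLD1, 0.38 for POLA2 and 0.32 for POLA1. The remaining fork genes gave 0.73 for CLSPN, 0.62 for LIG1, 0.61 for RPA2, 0.40 for FEN1 and 0.22 for RPA1. The nucleotide genes gave 0.48 for TYMS, 0.35 for RRM2 and 0.33 for RRM1.

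The signed response was lower in Kyse410 for ORC6, at -0.44, MCM2, at -0.20, and POLD2, at -0.16.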

How the results depend on the processing

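The Kyse410 rise and the lower scramble levels in Kyse410 kept their direction under every alternative. Called higher or lower were 37 to 43 and 0 to 1 of the 52 genes in Kyse410, 13 to 21 and 4 to 8 in TE10, 32 to 35 and 2 to 3 for the difference between lines, and 1 and 41 to 46 between scramble controls. All-gene counts moved as well, and the number of genes tested varied between settings. They were 3060 to 3926 higher and 3467 to 4346 lower in Kyse410, and 2610 to 3518 and 2439 to 3262 in TE10. For the difference they were 2366 to 3259 and 2700 to 3294, and between scramble controls 5660 to 6528 and 5311 to 6057. In TE10 the stricter filter gave the most higher calls both among the 52 genes and among all genes. Leaving out a library gave 4 to 7 lower calls in TE10, with 4 without TE10 shUHRF1 replicate 1, and 0 to 1 in Kyse410. Of the 52 genes, those called lower numbered 4 in TE10 with DESeq2, which also gave the fewest lower calls among all genes there, 2439. In Kyse410, where ORC2 is the gene concerned, they numbered 0 under RLE scaling, library totals, TMM without mitochondrial genes, DESeq2, no filter, the stricter filter and a fit of only these libraries. The Kyse410 median was 0.36 under RLE scaling, TMM without mitochondrial genes, DESeq2 and no filter, 0.37 under library totals and only these libraries, 0.38 under the stricter filter, and 0.32 to 0.36 with a library left out. The median difference between lines was 0.39 under library totals and no filter, and 0.33 to 0.37 with a library left out. The scramble median was -0.69 under RLE scaling and DESeq2, -0.62 under library totals, and -0.72 to -0.69 with a library left out.

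Calls that held under every alternative were 35 of 42 in Kyse410, 16 of 23 in TE10, 34 of 36 for the difference and 42 of 47 between scramble controls; those lost are named with their values beside the results. Called under some alternatives only were POLA1, RFC1 and RFC3 in Kyse410, MCM3, MCM7, CDC6, CDC7, RFC3 and RPA3 in TE10, MCM5, MCM10, ORC2, PRIM2 and POLE for the difference, and CDC7 between scramble controls.

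The genes that changed sign were all uncalled and near 0 in the main fit. RFC3 in Kyse410 was called without Kyse410 shUHRF1 replicate 1, at 0.17 (adjusted p = 0.0253 in edgeR's quasi-likelihood test). CDC7 between scramble controls was called without Kyse410 scramble replicate 2, at -0.17 (adjusted p = 0.0465 in the same test). In TE10, RFC2 was at 0.00 under RLE scaling and DESeq2 and 0.01 under the stricter filter, POLE at 0.00 and TYMS at -0.01 under no filter, and TYMS at 0.00 in a fit of only these libraries. In Kyse410, ORC6 was at 0.00 under RLE scaling and at 0.01 under library totals, the stricter filter and only these libraries. Between scramble controls, MCM8 was at 0.02 under RLE scaling and DESeq2, and library totals gave 0.08 for MCM8, 0.06 for MCM2, 0.05 for RFC5, 0.04 for CDC7 and 0.04 for POLE. With a library left out, TE10 values ran from -0.04 to 0.10 for MCM10, from -0.01 to 0.10 for ORC2, from -0.15 to 0.03 for ORC4, from 0.00 to 0.10 for CDT1, from -0.07 to 0.01 for DBF4, from -0.04 to 0.01 for RFC2, from -0.11 to 0.01 for PRIM2, from -0.02 to 0.06 for POLE and from -0.05 to 0.05 for TYMS, Kyse410 values from -0.11 to 0.09 for ORC6, from -0.01 to 0.17 for RFC3, from 0.00 to 0.09 for RFC5 and from -0.09 to 0.02 for POLD2, line differences from -0.08 to 0.02 for ORC5, from -0.15 to 0.03 for RFC3, from -0.03 to 0.11 for RPA3 and from -0.04 to 0.10 for TK1 and scramble differences from -0.08 to 0.03 for MCM8, from -0.17 to 0.01 for CDC7 and from -0.11 to 0.02 for RFC5.

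Samples with the same replicate number did not deviate together (correlations of -0.01 to 0.04), so the numbers were not taken to pair them. A replicate block gave 41 and 1 calls in Kyse410, 16 and 8 in TE10, 33 and 3 for the difference, and 1 and 46 between scramble controls. Depth limits the low genes most: PRIM2, GINS4, GINS2 and POLE2 had as few as 47, 58, 66 and 68 reads in a library. The cause of these changes was not tested.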
